A study of Homo sapiens with 18 samples.

Results

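Ribosome biogenesis factors are the proteins that transcribe, cut, modify and assemble ribosomal RNA before a ribosome can be used. A list of 40 gene symbols was described here: subunits of RNA polymerase I, nucleolar proteins of rRNA processing, and MYC. For each gene the probe set assigned to that gene alone with the highest mean over the 18 arrays was taken. This gave a measured probe set for 35 of the 40 genes, among 10832 genes tested in the series. NOP56, DKC1, BOP1 and PPAN had only probe sets assigned to several genes, and GNL3 had none in the table used, so these 5 were not analysed here.

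The cells were HK-2, an immortalized human line described by the submitters as renal proximal tubular epithelium, and total RNA was measured on Affymetrix HG-U133 Plus 2.0 arrays. There were 6 groups of 3 biological replicates: cells left in medium, cells given DMSO and cells given ethanol, each for 24 h or 48 h. All groups shared the same growth medium with EGF, insulin and hydrocortisone, and the cells were at about 90% confluency when treatment began. These were the control arms of a toxicity study, the sample labels state no vehicle dose, and the series text names 12 h where the sample labels used here give 24 h. All 18 arrays came from 1 cell line.

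Ribosome production starts in the nucleolus, where RNA polymerase I makes a long precursor RNA. Guide RNAs in box C/D and H/ACA particles direct its methylation and pseudouridylation, the small-subunit processome folds and cleaves it, and further factors finish the 40S and 60S subunits. MYC is a transcription factor that drives many of these genes, and the pathway as a whole follows growth signals and is costly for the cell.

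The labelled cell type was checked against marker genes. All 5 epithelial markers (KRT8, KRT18, KRT19, EPCAM and CDH1) were above a log2 value of 4 on most arrays, and the renal transcription factor PAX8 was above 4 on all 18. The other 10 of 11 measured proximal tubule genes, among them LRP2, CUBN and AQP1, were at or below 4 on every array. Of other cell types, 3 of 6 fibroblast markers (COL1A1, DCN, LUM) and 1 of 3 podocyte markers (PODXL) were above 4 on most arrays, whereas 0 of 4 endothelial and 0 of 2 leukocyte markers were above 4 on any array. Both ethanol replicate 3 arrays stood apart from the rest, at -52.3 (24 h) and -61.6 (48 h) on the second principal component, where the other 16 arrays lay between -21.2 and 20.5. The count for each comparison with ethanol was therefore also computed without them. In total RNA from whole cultures, fewer cells expressing a gene and less RNA per cell cannot be told apart.

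Upstream sequences of the genes that the comparisons turn on are shown first, as the stretch that carries the core promoter of each. RefSeq promoter windows on GRCh38.p14 were matched by symbol for 34 of the 40 genes. NOLC1, RRP12, RRS1, BOP1, NOP58 and MYC were without an entry. The 150 bases before the transcript start are given 5′ to 3′ on the gene's own strand. Of genes with an entry, LYAR, POLR1B and UTP20 had the largest differences below zero between ethanol and medium at 48 h. UTP15, GAR1 and DDX21 had the largest above zero. NOB1 and NHP2 were added after their values were seen, because they changed over time in ethanol. Capitals mark an E-box (CACGTG, bound by MYC with MAX), the core of the NRF1 site (CGCATGCG) or an ETS site (CCGGAAGT), each searched on both strands. The windows were chr4:4290155-4290304 (minus strand) for LYAR, chr2:112541886-112542035 (plus strand) for POLR1B, chr12:101279955-101280104 (plus strand) for UTP20 and chr5:73565593-73565742 (plus strand) for UTP15. They were chr4:109815360-109815509 (plus strand) for GAR1, chr10:68956020-68956169 (plus strand) for DDX21, chr16:69754927-69755076 (minus strand) for NOB1 and chr5:178153886-178154035 (minus strand) for NHP2.
LYAR: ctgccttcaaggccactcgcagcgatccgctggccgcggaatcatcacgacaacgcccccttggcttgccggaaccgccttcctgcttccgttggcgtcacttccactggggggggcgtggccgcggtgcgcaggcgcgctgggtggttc
POLR1B: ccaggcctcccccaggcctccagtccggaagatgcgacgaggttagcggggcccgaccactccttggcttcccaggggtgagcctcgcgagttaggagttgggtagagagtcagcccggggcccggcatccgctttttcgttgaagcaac
UTP20: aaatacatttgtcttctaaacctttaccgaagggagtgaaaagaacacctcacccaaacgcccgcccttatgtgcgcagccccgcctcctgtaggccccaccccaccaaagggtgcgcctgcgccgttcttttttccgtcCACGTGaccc
UTP15: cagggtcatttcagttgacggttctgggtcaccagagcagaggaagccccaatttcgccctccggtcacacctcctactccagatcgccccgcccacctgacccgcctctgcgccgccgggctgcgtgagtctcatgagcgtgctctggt
GAR1: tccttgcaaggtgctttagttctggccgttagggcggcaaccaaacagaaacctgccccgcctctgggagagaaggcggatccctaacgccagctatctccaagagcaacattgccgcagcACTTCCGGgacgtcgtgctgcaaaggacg
DDX21: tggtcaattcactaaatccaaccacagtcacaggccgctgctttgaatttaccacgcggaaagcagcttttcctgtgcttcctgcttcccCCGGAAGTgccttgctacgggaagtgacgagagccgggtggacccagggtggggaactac
NOB1: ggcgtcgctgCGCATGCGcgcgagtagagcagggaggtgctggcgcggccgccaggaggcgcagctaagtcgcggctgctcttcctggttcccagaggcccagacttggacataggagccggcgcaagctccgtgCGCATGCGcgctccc
NHP2: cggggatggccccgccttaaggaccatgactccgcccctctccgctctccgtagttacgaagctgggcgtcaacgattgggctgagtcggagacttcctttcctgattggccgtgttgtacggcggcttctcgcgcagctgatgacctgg

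The sequences differed in which of these letters they held. UTP20 held an E-box that began 10 bases before its start, GAR1 an ETS site on the opposite strand at 29 bases, and DDX21 an ETS site at 60 bases. NOB1 held the NRF1 core at 140 and again at 15 bases, and LYAR, POLR1B, UTP15 and NHP2 held none of the 3 motifs in the window shown. Over 250 bases, 3 of the 34 genes held an E-box (8.82%), against 9.42% of 8979 tested genes with an entry. These 3 were UTP20, UTP18 and IMP4. An ETS site was found in 3 (GAR1, DDX21 and POLR1C, 8.82%), against 7.81%. The NRF1 core was found in 4 (NOB1, UTP18, MYBBP1A and DKC1, 11.8%), against 3.54%. A match of letters is a description of the sequence, and binding was not measured.

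All 35 measured genes were expressed on every array, and the lowest single value was a log2 signal of 5.14 (RRP9 on 1 ethanol array at 24 h). The filter on low values, a log2 value above 4 on at least 3 arrays, therefore removed none of the 35. NPM1, the abundant nucleolar chaperone nucleophosmin, varied least on the chosen probe sets: its 18 values lay between 14.65 and 14.91. Another NPM1 probe set, with a mean of 12.3, differed by 0.36 between ethanol and medium at 48 h. Whether differences are measured as well at the higher level was not tested. Differences between groups are given in log2, where a difference of 1 is a doubling. For ethanol against medium at 48 h they ran from -0.34 to 0.66 over the 35 genes, and for time in ethanol from -0.73 to 0.62. Over all 10832 genes they ran from -2.84 to 4.94 and from -3.29 to 5.32. A range over so many more genes tends to be wider for that reason alone, so no conclusion is drawn from it.

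**Figure D1:**
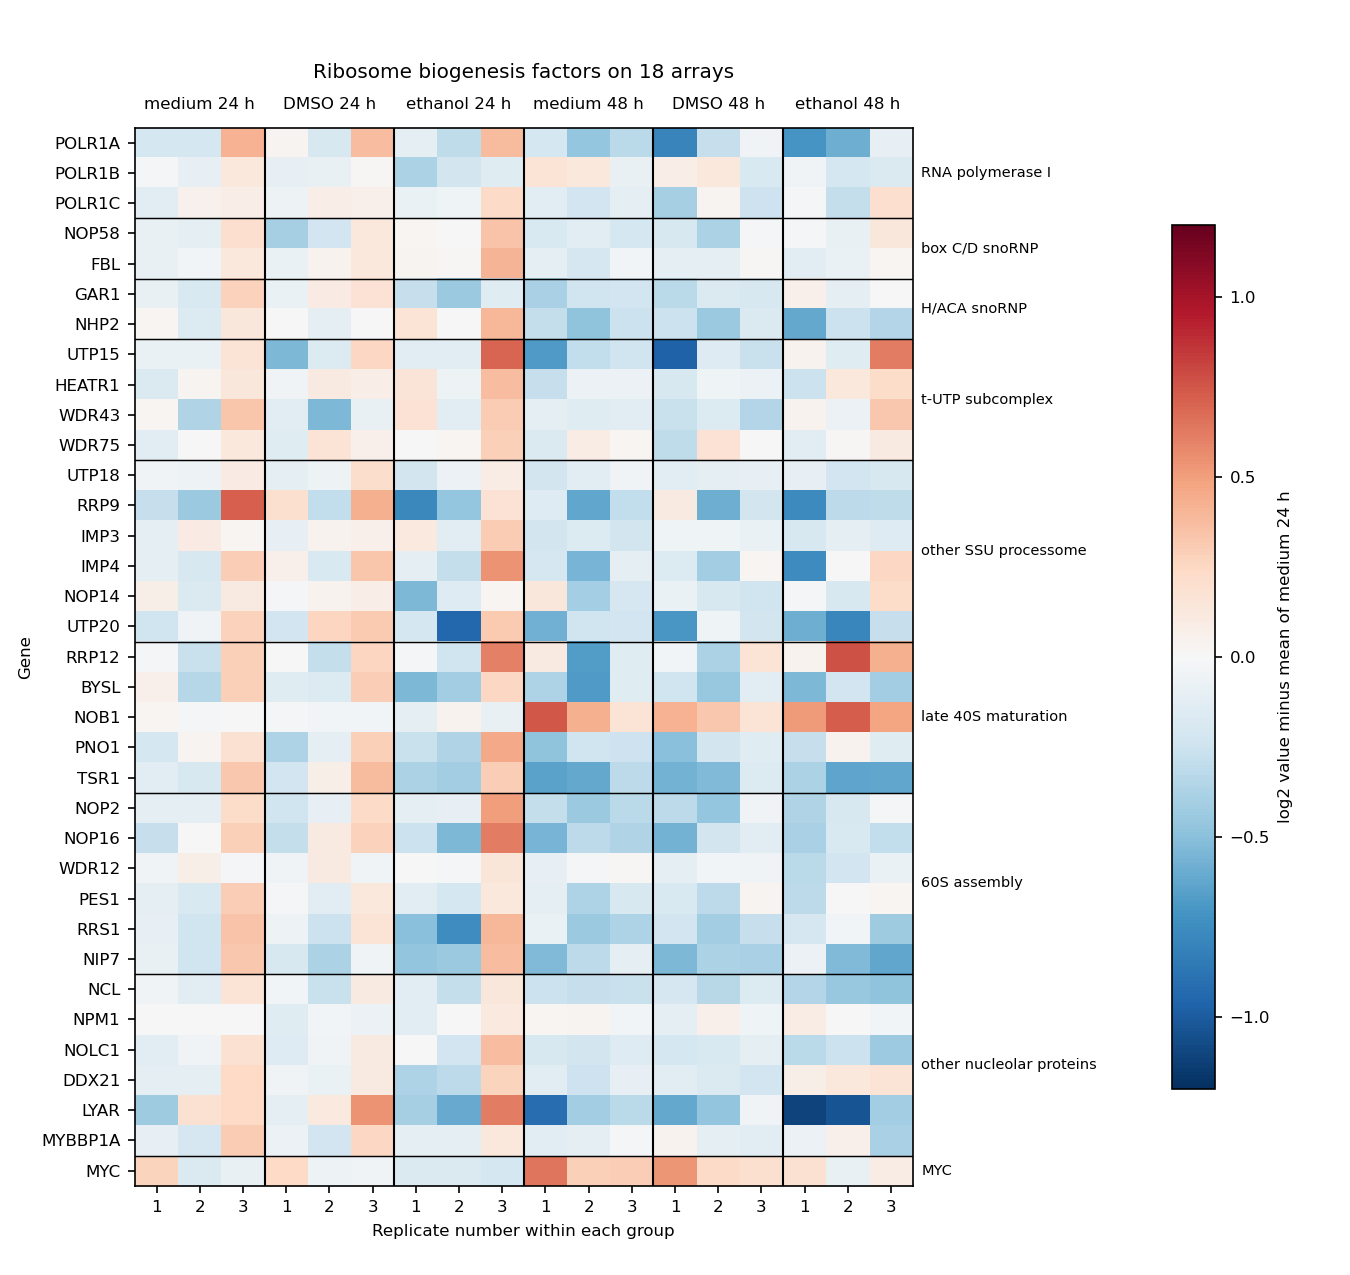
Each row is 1 of the 35 genes, ordered by role, and each column is 1 array. Colour gives the log2 value minus the gene's mean on the 3 medium arrays at 24 h, so red is higher and blue lower. Replicate 3 at 24 h is red down most rows in all 3 controls, and most of the 48 h columns are blue. The NOB1 row is red at 48 h, as is the MYC row except on ethanol replicate 2 (-0.08).

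Arrays of the same group did not move independently across these genes. At 24 h, replicate 3 was the highest of its group for 30 of the 35 genes in medium (85.7%), 27 in DMSO (77.1%) and 33 in ethanol (94.3%). Over all 10832 genes the shares were 35.5%, 36.5% and 41.2%. The median gene of the list lay 0.30, 0.24 and 0.38 log2 above the mean of replicates 1 and 2 in the 3 controls, whereas the median over all genes lay between -0.01 and 0.01. At 48 h the shares were 48.6%, 45.7% and 48.6%, against 35.8%, 31.8% and 36.1% of all genes. The medians were 0.08, 0.07 and 0.06, against 0.02, -0.02 and 0.01. A list of 10 proliferation genes was also highest in replicate 3 at 24 h, with medians on the 3 medium arrays of -0.11, -0.05 and 0.22 relative to their mean. Its values on the ethanol arrays at 24 h were -0.06, -0.19 and 0.05. The part of replicate 3 in the results over time is given beside them.

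Ethanol was compared with medium at 48 h, the time at which more genes of the series differed between these controls. None of the 35 genes passed the test (limma, adjusted p under 0.05 over all 10832 genes), where 15.3% of all genes passed. At an unadjusted p under 0.05 there were 3, RRP12, MYC and GAR1, against 3286 of all 10832 genes. The differences ran from -0.34 to 0.66 log2, 21 above and 14 below zero, with a median of 0.05 against -0.04 over all genes. The 95% interval of the difference lay within a 1.5-fold change for 22 of the 35 and within a 2-fold change for 33, so larger changes than these were outside the intervals. Arrays of the 2 groups did not overlap for 8 of the 35 genes, against 29.6% of all genes. Without both ethanol replicate 3 arrays 0 of the 35 passed, and the differences were -0.36 for MYC, 0.65 for RRP12 and 0.36 for UTP15, against -0.34, 0.66 and 0.58 with them. Calls in this comparison changed in a fit with the replicate number as a block, which is given with the alternatives at the end.

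**Figure D2:**
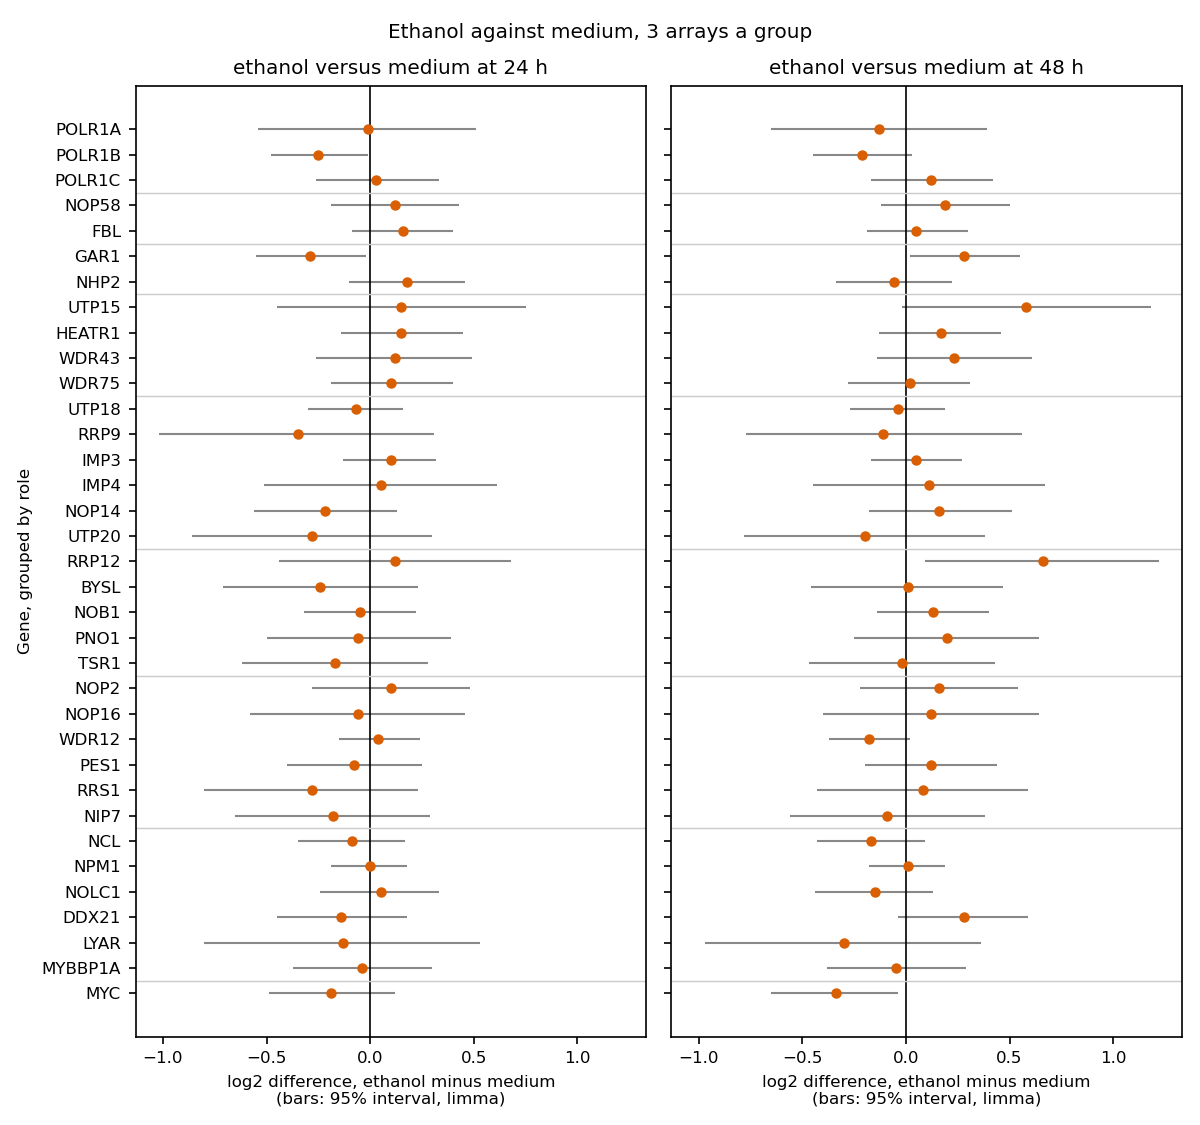
Log2 difference, ethanol minus medium, for each of the 35 genes at 24 h and 48 h, with bars for the 95% interval from limma (3 arrays a group). Most intervals cross zero, RRP12 and UTP15 lie farthest above it at 48 h (0.66 and 0.58), and MYC lies farthest below (-0.34).

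MYC is taken first, as a regulator of many of the others. Its log2 values at 48 h were 12.82, 12.46 and 12.47 in medium and 12.36, 12.09 and 12.27 in ethanol. Every ethanol array was lower than every medium array, yet the margin between the nearest arrays was small. The difference was -0.34 ± 0.14 (SE), 1.27-fold lower, with an adjusted p of 0.121 (limma). Values with DMSO at 48 h were 12.71, 12.41 and 12.37, which overlapped medium. At 24 h MYC read 12.44, 12.00 and 12.09 in medium and 12.00, 12.00 and 11.97 in ethanol, a difference of -0.19 ± 0.14 with an adjusted p of 0.792.

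The 3 subunits of RNA polymerase I showed no common direction on their chosen probe sets. POLR1B, the second-largest subunit, read 9.40, 9.36 and 9.15 in medium and 9.19, 9.03 and 9.06 in ethanol at 48 h. The groups overlapped, and the difference was -0.21 ± 0.11 with an adjusted p of 0.216. POLR1A, the largest subunit, differed by -0.13 ± 0.24, with ethanol values of 5.96, 6.08 and 6.57 against 6.46, 6.20 and 6.34. POLR1C, shared with RNA polymerase III, differed by 0.12 ± 0.14, with values of 8.49, 8.22 and 8.71 against 8.38, 8.28 and 8.40.

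Of the particles that modify rRNA, the box C/D proteins were NOP58 and the methyltransferase fibrillarin (FBL). NOP58 read 11.44, 11.37 and 11.59 in ethanol and 11.27, 11.32 and 11.25 in medium, without overlap, a difference of 0.19 ± 0.15 (adjusted p 0.404). FBL differed by 0.05 ± 0.11, and its groups overlapped. GAR1, an H/ACA protein, read 10.63, 10.47 and 10.58 in ethanol and 10.18, 10.33 and 10.34 in medium. All 3 ethanol arrays were higher, by 0.28 ± 0.12 log2, with an adjusted p of 0.143. Its partner in the same particle, NHP2, differed by -0.06 ± 0.13.

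The t-UTP proteins act both in rDNA transcription and in the first step of the small-subunit processome. UTP15 read 8.14, 7.95 and 8.71 in ethanol and 7.41, 7.80 and 7.85 in medium. The groups did not overlap, and the difference of 0.58 ± 0.28, 1.49-fold, had an adjusted p of 0.18. WDR43 read 8.36, 8.24 and 8.64 against 8.20, 8.17 and 8.18, also without overlap, with a difference of 0.23 ± 0.18. HEATR1 and WDR75 were closer, at 0.17 ± 0.14 and 0.02 ± 0.14, and their groups overlapped. The 6 other processome genes (UTP18, RRP9, IMP3, IMP4, NOP14 and UTP20) lay between -0.20 (UTP20) and 0.16 (NOP14), all with overlapping groups.

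Among the factors that finish the 40S subunit, RRP12, which is needed for nuclear export, gave the largest difference of the 35. It read 6.83, 7.55 and 7.21 in ethanol and 6.89, 6.11 and 6.64 in medium. Ethanol replicate 1 lay just below the highest medium array. The difference was 0.66 ± 0.26, 1.58-fold, with an adjusted p of 0.107, and with that array left out the adjusted p was 0.0493. The endonuclease NOB1 differed by 0.13 ± 0.13, and BYSL, PNO1 and TSR1 lay between -0.02 (TSR1) and 0.20 (PNO1). The 6 factors of the 60S subunit (NOP2, NOP16, WDR12, PES1, RRS1 and NIP7) lay between -0.18 (WDR12) and 0.16 (NOP2), with every pair of groups overlapping.

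The other nucleolar proteins split in direction. The RNA helicase DDX21 read 12.45, 12.51 and 12.54 in ethanol and 12.25, 12.13 and 12.28 in medium, a difference of 0.28 ± 0.15 without overlap (adjusted p 0.221). Nucleolin (NCL) read 12.65, 12.55 and 12.52 in ethanol and 12.75, 12.73 and 12.74 in medium, a difference of -0.17 ± 0.12. NOLC1, a chaperone of snoRNA particles, differed by -0.15 ± 0.13, and neither of these overlapped. LYAR, a nucleolar zinc-finger protein, differed by -0.30 ± 0.31, MYBBP1A by -0.05 ± 0.16 and NPM1 by 0.01 ± 0.09, all 3 with overlapping groups.

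**Figure D3:**
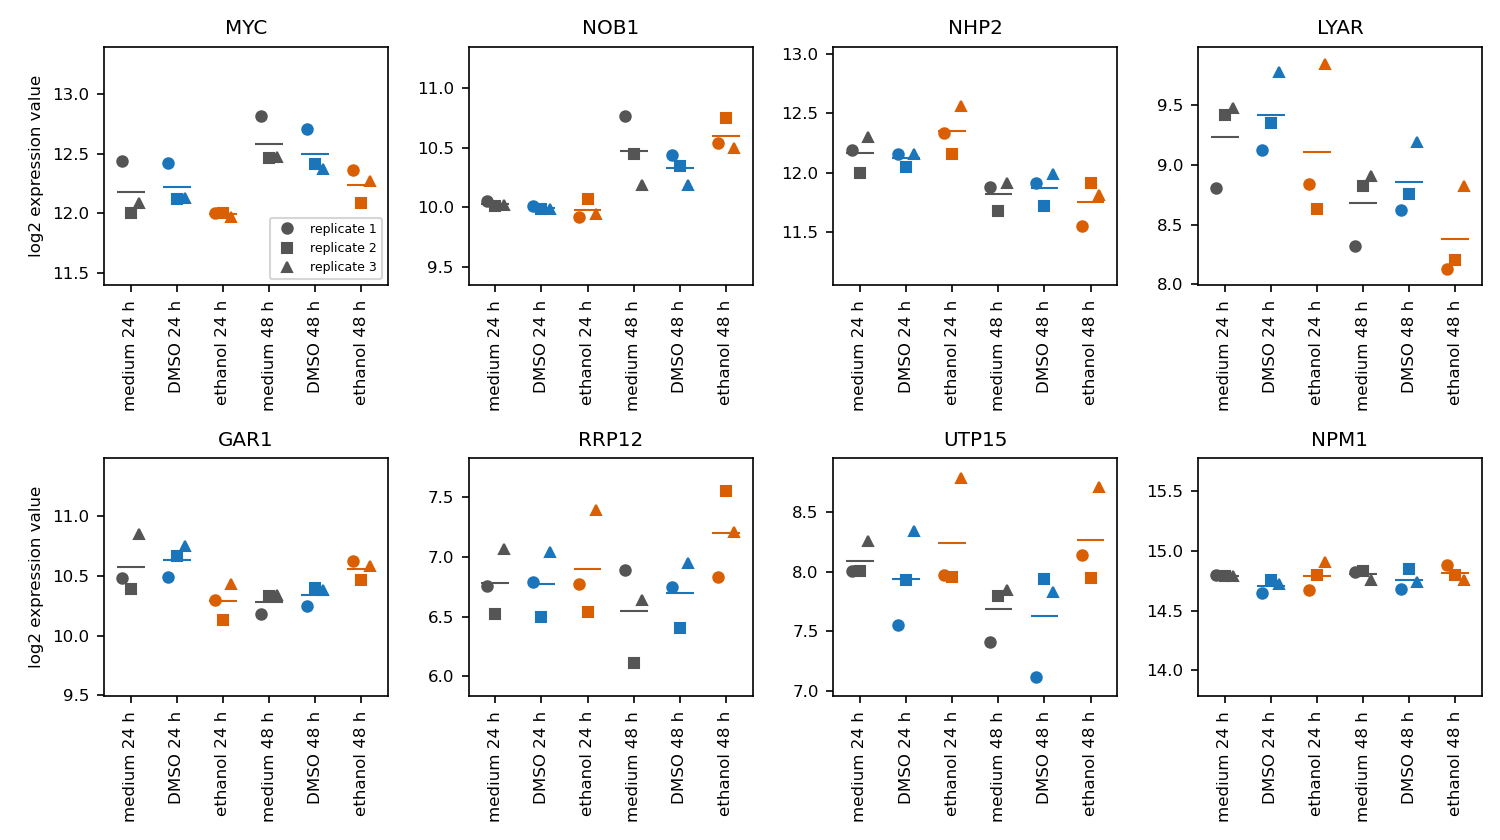
Log2 values on each array for selected genes in the 6 groups, each point 1 array, with the group mean. Each panel has its own vertical scale. NOB1 lies higher at 48 h than at 24 h in all 3 controls, NHP2 lower, and GAR1 lies lower at 48 h in medium and DMSO but higher in ethanol.

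At 24 h the comparison of ethanol with medium gave 0 of the 35 genes past the test, against 0.0739% of all genes. At an unadjusted p under 0.05 there were 965 of all 10832 genes and 2 of the 35. These were POLR1B, at -0.25 ± 0.11 without overlap, and GAR1, at -0.29 ± 0.12. GAR1 read 10.30, 10.13 and 10.43 in ethanol and 10.48, 10.39 and 10.85 in medium, which overlapped. The median of the 35 differences was -0.05. The 95% interval lay within a 1.5-fold change for 25 genes and within a 2-fold change for 34.

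DMSO did not differ detectably from medium. At 24 h 0 of the 35 genes passed (background 0%), and at 48 h again 0 of 35 (background 0%). At either time 0 of the 35 had an unadjusted p under 0.05, against 204 of all 10832 genes at 24 h and 53 at 48 h. Median differences were 0.00 at 24 h and 0.02 at 48 h, the largest single difference at 48 h was 0.17 (LYAR), and intervals lay within a 1.5-fold change for 27 and 26 genes. Ethanol against DMSO gave 0 of 35 at 24 h (background 0.619%) and 0 of 35 at 48 h (background 17.9%), with medians of -0.02 and 0.02. The comparisons of ethanol and DMSO with medium share the medium arrays, so their differences are not independent.

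Genes outside the list show what else ethanol moved at 48 h. Of wider lists of the same pathway, which do not include the 35, 2 rose and 1 fell of 45 genes for the small-subunit processome and 40S subunit, with a median of 0.12. For the 60S subunit 5 rose and 1 fell of 44, with a median of 0.08. RIOK2, a kinase of late 40S maturation, rose by 0.61 ± 0.14 (adjusted p 0.00969) and NOL7 by 0.55 ± 0.17 (adjusted p 0.0441), while TSR2, a chaperone of a 40S protein, fell by 0.35 ± 0.11 (adjusted p 0.0444). On the 60S side NVL rose by 0.51 ± 0.15, RSL24D1 by 0.51 ± 0.13, and the export adaptor NMD3 by 0.46 ± 0.11, whereas PELP1 fell by 0.54 ± 0.17 (adjusted p 0.0392, 0.0156, 0.0107 and 0.048). The shares that passed, 6.67% and 13.6%, were below the background of 15.3%.

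Partners of the listed genes passed at shares near or below the background of 15.3%: 15.4% of 13 RNA polymerase I genes and 12.5% of 8 genes of the MYC network. Of the 13 other RNA polymerase I subunits and factors, TAF1D, part of the promoter selectivity factor, rose by 0.65 ± 0.18 (adjusted p 0.0221) and the subunit POLR1F fell by 0.51 ± 0.12 (adjusted p 0.0143). In the MYC network 1 passed: MAX, the dimerization partner of MYC, rose by 0.66 ± 0.12 (adjusted p 0.00329). None of 51 cytosolic ribosomal protein genes passed in this comparison, with a median of 0.07. At an unadjusted p under 0.05 there were 3 of the 51, against 3286 of all 10832 genes. The median level of this list was 14.82 to 15.04 log2 on the 18 arrays, where the median tested gene was at 8.42. Whether differences are measured as well at that level was not tested. In the same arrays 8 of 10 genes of the integrated stress response rose (median 1.42) and 7 of 10 proliferation genes fell (median -0.60). Of the 3 fibroblast markers LUM fell by 1.07 ± 0.26, and DCN and COL1A1 were at -1.20 ± 0.48 and -0.16 ± 0.23. Their part in the values of the ribosome biogenesis genes was not tested.

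**Figure D4:**
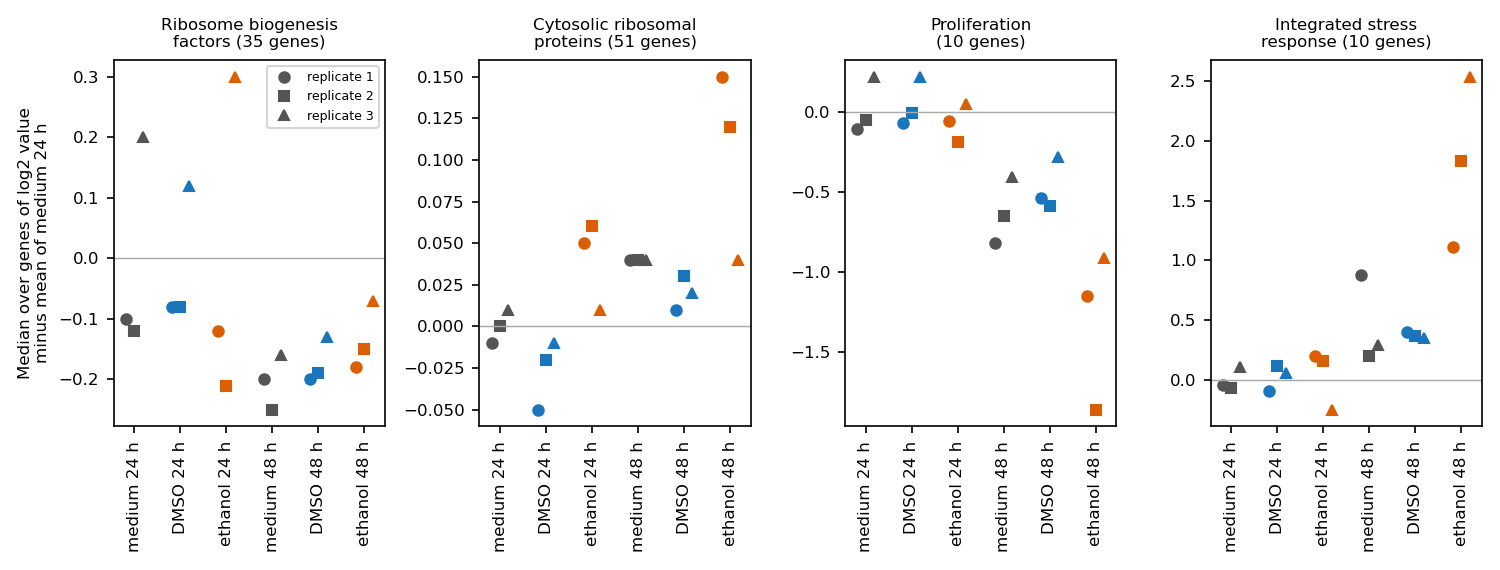
Median log2 value of each gene list on each array, relative to the medium arrays at 24 h, each point 1 array. The panels have different vertical scales. The ribosome biogenesis medians at 48 h lie between -0.25 and -0.07, while on the ethanol arrays at 48 h the stress response list reaches 1.11 to 2.54 and the proliferation list -1.86 to -0.91.

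More of the 35 genes lay lower than higher at 48 h in each control, and how many did so depended on replicate 3. With all arrays, 25 of the 35 were lower than at 24 h in all 3 controls (71.4%), against 32.8% of all genes. Another 4 (POLR1B, NOB1, NPM1 and MYC) were higher in all 3, against 28.8%. Of these, NPM1 differed by only 0.01, 0.04 and 0.02 in medium, DMSO and ethanol, and POLR1B by 0.07, 0.06 and 0.1. GAR1, UTP15, NOP14, RRP12, RRS1 and DDX21 were lower in medium and DMSO and higher in ethanol. The medians of the differences were -0.23 in medium, -0.18 in DMSO and -0.11 in ethanol, where those over all genes were -0.02, -0.01 and -0.01. Without replicate 3 of every group, a setting added after the data were seen, 15 of the 35 were lower in all 3 controls (42.9%, against 31.4% of all genes) and the medians were -0.13, -0.16 and -0.02. Without replicate 1 there were 24 (68.6%, against 30.9% of all genes) and without replicate 2 there were 25 (71.4%, against 32.8%). Within medium and within DMSO 0 of the 35 passed (background 0% in both), with 5 and 3 at an unadjusted p under 0.05. Over all 10832 genes there were 1205 and 1105 at that unadjusted p. Arrays of the 2 times did not overlap for 14 of the 35 in medium (26.6% of all genes), 7 in DMSO (22.8%) and 7 in ethanol (30.2%). The 3 fibroblast markers that were tested lay lower too, with medians of -0.38 in medium, -0.32 in DMSO and -0.50 in ethanol. Their part in these values was not tested.

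**Figure D5:**
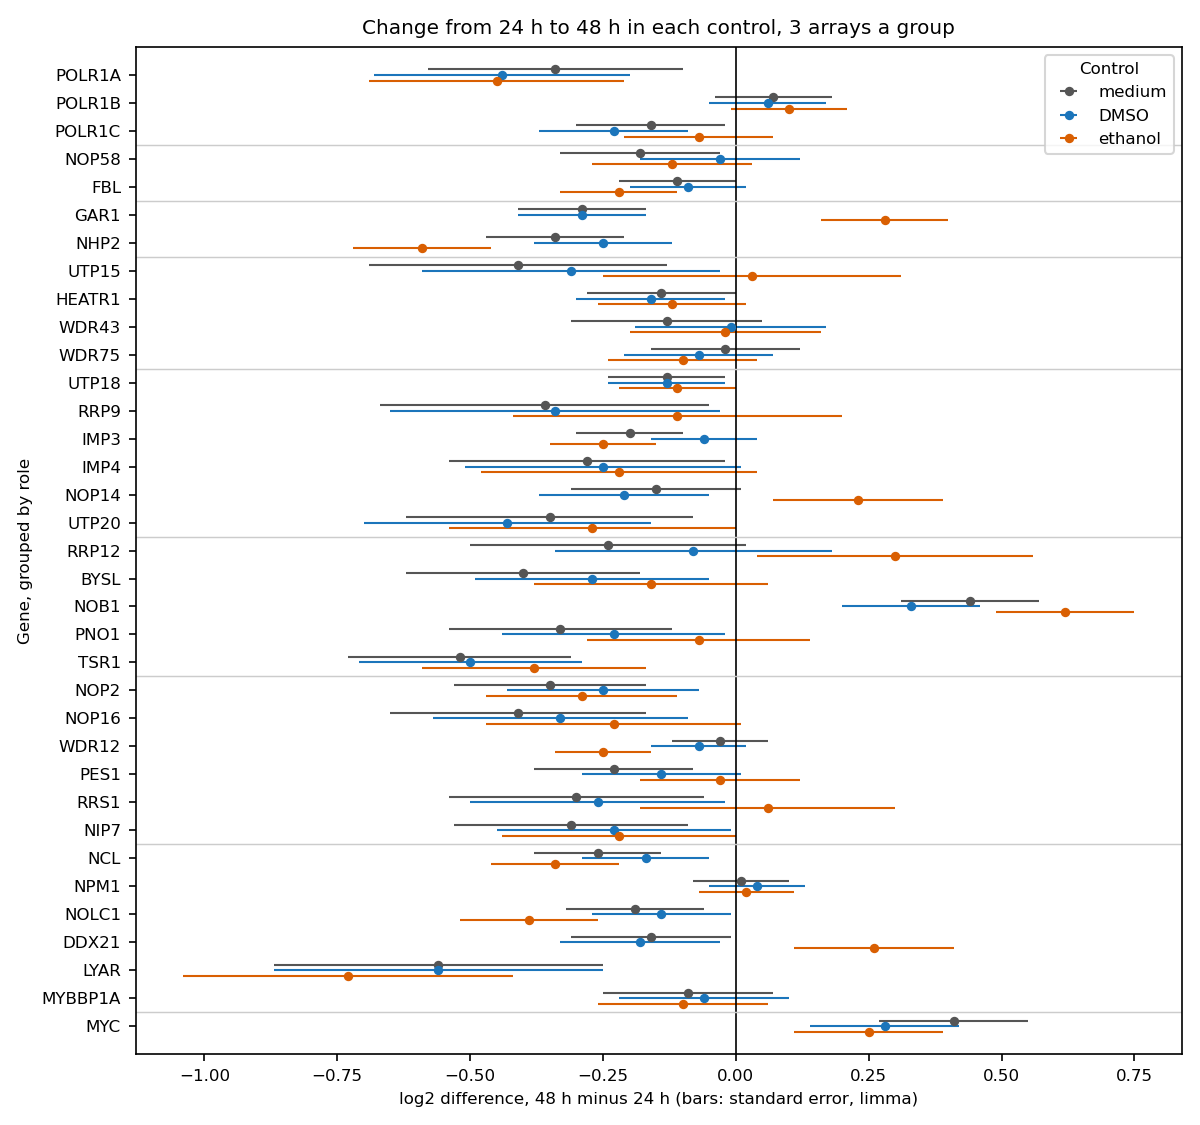
Log2 difference, 48 h minus 24 h, for each of the 35 genes in medium, DMSO and ethanol, with bars for the standard error from limma (3 arrays a group). With all 3 replicates most points lie left of zero in each control, NOB1 and MYC lie right of it, and GAR1, NOP14, RRP12 and DDX21 lie on opposite sides in ethanol and in the other controls.

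Within ethanol 3 of the 35 genes passed, against 23% of all genes. Of these 1 rose and 2 fell, where 11.7% of all genes rose and 11.3% fell. NOB1, the endonuclease that makes the last cut of 18S rRNA, read 9.92, 10.07 and 9.94 at 24 h and 10.54, 10.75 and 10.50 at 48 h. It rose by 0.62 ± 0.13 (adjusted p 0.00312), with no overlap. NHP2, a core protein of H/ACA particles and of telomerase, read 12.33, 12.16 and 12.56 at 24 h and 11.55, 11.91 and 11.81 at 48 h. It fell by 0.59 ± 0.13 (adjusted p 0.0055), again with no overlap. NOLC1 read 12.26, 12.04 and 12.64 at 24 h and 11.94, 12.01 and 11.83 at 48 h, and fell by 0.39 ± 0.13 with an adjusted p of 0.0493.

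These 3 calls were not equally stable. NOLC1 lost its call when 24 h replicate 1 or 3 or any 48 h array of ethanol was left out, and without both ethanol replicate 3 arrays its difference was -0.18 (adjusted p 0.36), while DDX21 passed. NOB1 and NHP2 kept theirs without each array in turn and without both replicate 3 arrays. When only the 6 ethanol arrays were fitted, none of the 35 and 0.877% of all genes passed, and the adjusted p was 0.0769 for NOB1 and 0.124 for NHP2. Without ethanol 24 h replicate 2, 6 of the 35 passed, the others being IMP3, LYAR and NCL, where 23.2% of all genes passed. With replicate number as a block 8 passed: LYAR, MYC, NCL, POLR1A and WDR12 in addition to NOB1, NHP2 and NOLC1, against 32.8% of all genes.

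The same genes were then read in medium and DMSO. NOB1 read 10.05, 10.01 and 10.02 in medium at 24 h and 10.77, 10.45 and 10.19 at 48 h. In DMSO it read 10.01, 9.99 and 9.99, then 10.44, 10.35 and 10.19. Every 48 h array was above every 24 h array in both, and the spread was wider at 48 h. NHP2 read 12.19, 12.00 and 12.30, then 11.88, 11.68 and 11.91 in medium, and 12.16, 12.05 and 12.16, then 11.91, 11.72 and 11.99 in DMSO. Neither control overlapped between the times, with differences of -0.34 ± 0.13 and -0.25 ± 0.13.

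Medium and DMSO arrays of the same replicate number deviated together, so the replicate number was also fitted as a block. Over all 18 arrays the block gave 2 genes in medium, MYC (0.41 ± 0.09, adjusted p 0.0285) and NOB1 (0.44 ± 0.11, adjusted p 0.0472), against 4.04% of all genes, and 0 in DMSO. Restricted to the 12 medium and DMSO arrays, a fit added after the data were seen, it gave 14 of the 35 in medium (background 29.8%) and 10 in DMSO (background 28.5%). In each, 2 rose (MYC and NOB1), against 12.5% and 13.4% of all genes. The others, 12 in medium and 8 in DMSO, fell, against 17.3% and 15% of all genes. BYSL, GAR1, IMP4, LYAR, NHP2, NOP16, TSR1 and UTP20 fell in both. TSR1, a GTPase-like factor of late 40S maturation, fell by 0.52 ± 0.08 in medium (adjusted p 0.00146), and LYAR by 0.56 ± 0.10 (adjusted p 0.00298).

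A comparison of time averaged over the 3 controls was added after the data were seen, since it uses 9 arrays a side. These 9 are 3 replicate numbers in 3 controls, and same-numbered medium and DMSO arrays deviated together. The fit counts them as separate arrays, so its standard errors and adjusted p take no account of this. It gave 10 of the 35 genes, 28.6%, and 28.2% of all genes, so the share of the list was near the background. By direction, 2 rose and 8 fell, where 13.1% of all genes rose and 15.1% fell. The median difference was -0.15, with 31 below zero, against -0.01 over all genes. NOB1 rose by 0.46 ± 0.07 (adjusted p 0.000677) and MYC by 0.31 ± 0.08 (adjusted p 0.0132). The 8 that fell were LYAR by 0.62 ± 0.18, TSR1 by 0.47 ± 0.12, POLR1A by 0.41 ± 0.14, NHP2 by 0.39 ± 0.08, NOP2 by 0.30 ± 0.10, NCL by 0.26 ± 0.07, NOLC1 by 0.24 ± 0.08 and IMP3 by 0.17 ± 0.06. Their adjusted p ran from 0.00237 (NHP2) to 0.0499 (IMP3).

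Leaving out 1 replicate of every group lowered the count, in the list and over all genes. Without replicate 1, 2 genes passed (MYC and NOB1), with 6.34% of all genes. Without replicate 2 there were 3 (NCL, NHP2 and NOB1), with 11.7% of all genes. Without replicate 3, the one that stood high at 24 h, there were 6 (LYAR, NHP2, NOB1, NOP2, POLR1A and TSR1), with 24.3% of all genes. NOB1 was the 1 gene called in all 3. Without replicate 3 the median of the 35 differences was -0.09, with 25 below zero. Without both ethanol replicate 3 arrays alone, 8 passed, with 31.4% of all genes, and the median was -0.12.

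Some of the fallers were uneven between arrays. LYAR read 8.81, 9.42 and 9.48 in medium at 24 h and 8.32, 8.82 and 8.91 at 48 h, which overlapped by a narrow margin. In ethanol it read 8.84, 8.63 and 9.85, then 8.13, 8.20 and 8.82, and the array at 9.85 was replicate 3. POLR1A read 6.46, 6.46 and 7.08 in medium at 24 h and 6.46, 6.20 and 6.34 at 48 h, with replicate 3 again highest at 24 h. NOP2, a methyltransferase of 28S rRNA, read 8.56, 8.57 and 8.90, then 8.39, 8.23 and 8.35, with no overlap. NCL read 12.96, 12.88 and 13.17, then 12.75, 12.73 and 12.74, also with no overlap.

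The wider pathway lists were read over time in the same way. In the averaged comparison 0 rose and 11 fell of the 45 processome and 40S genes (median -0.14), and 3 rose and 8 fell of the 44 genes of the 60S subunit (median -0.15). In either direction these are 24.4% and 25% of the lists, near or below the 28.2% of all genes that passed. By direction, 13.1% of all genes rose and 15.1% fell, while all of the 24.4% were falls. Of the 8 genes of the MYC network 4 rose and 1 fell (62.5% passed). Of the 51 ribosomal protein genes 3 rose and 1 fell (7.84% passed, median 0.05). All 10 proliferation genes fell (median -0.83) and 8 of 10 stress response genes rose (median 0.83). Of the 3 fibroblast markers tested 2 fell, COL1A1 by 0.51 ± 0.13 and LUM by 0.57 ± 0.15, and DCN was at -0.38 ± 0.28. The part of these other lists in the values of the ribosome biogenesis genes was not tested.

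The change over time was compared between ethanol and medium directly. None of the 35 passed (limma), against 1.59% of all genes. At an unadjusted p under 0.05 there was 1, GAR1, against 1497 of all 10832 genes. GAR1 read 10.48, 10.39 and 10.85 in medium at 24 h and 10.18, 10.33 and 10.34 at 48 h, then 10.30, 10.13 and 10.43 in ethanol at 24 h and 10.63, 10.47 and 10.58 at 48 h. It was lower at 48 h on every medium array and higher on every ethanol array. The difference of the changes was 0.57 ± 0.18 (95% interval 0.19 to 0.95), with an adjusted p of 0.131. GAR1 passed here only in the fit with the replicate number as a block, given with the alternatives at the end. In DMSO it read 10.49, 10.67 and 10.75, then 10.25, 10.40 and 10.38, as in medium without overlap.

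Several genes were measured by more than 1 probe set, and these did not always move together. Over 27 further probe sets of 17 genes, 25 had the direction of the chosen one for ethanol against medium at 48 h (92.6%), 17 at 24 h (63%), 19 for time in medium (70.4%) and 21 for time in ethanol (77.8%). At 48 h the second probe sets of RRP12 and UTP15 differed between ethanol and medium by 0.74 and 0.42, and that of LYAR by -0.43. The design of the second RRP12 probe set also allows hybridization to other transcripts. At 24 h it differed by 0.75, where the chosen one differed by 0.12. The second UTP15 probe set had a mean of 4.49, near the filter, and differed by -0.29 at 24 h, against 0.15. Between ethanol and medium at 48 h the 4 probe sets of POLR1B ranged from -0.73 to -0.04. The second probe set of POLR1A differed by -0.52 there, where the chosen one differed by -0.13. Over time in ethanol the second was at -0.83 and the chosen one at -0.45. For time in medium, TSR1 was at -0.52 on the chosen probe set and at 0.24 on another whose design allows hybridization to other transcripts, the largest gap found. The direction for TSR1 therefore depends on the probe set. Another probe set of NPM1 differed by 0.36 between ethanol and medium at 48 h, where the chosen one differed by 0.01. For time in medium the other probe sets of NPM1 were at -0.05 and -0.2, where the chosen one was at 0.01.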

How the data were processed

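The values were log2 expression signals deposited by the authors, made with GCRMA per the submitters' processing notes; the log2 scale was read from the values, and the build and version are not given in the sources used here. Array medians were 2.855 to 2.945, so no further scaling was applied. Of 54675 probe sets, 41091 named 1 gene in the platform annotation and were used, 1801 named several and 11721 none. Genes were kept where a probe set exceeded a log2 value of 4 on at least 3 of 18 arrays, and the probe set with the highest mean stood for the gene. The number of arrays limits the precision.

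Groups were compared with limma 3.58.1 (lmFit, eBayes) in R 4.3.3 on all 18 arrays in 6 groups, two-sided, with Benjamini-Hochberg adjustment over 10832 genes and a threshold of 0.05. Adjusted p-values are from this limma fit unless another (a block, fewer arrays) is named beside them; the fit was tested on simulated data. P-values measure the spread between samples the labels call biological replicates. The genes given array by array were taken from MYC and up to 3 per role with the smallest adjusted p over 4 comparisons. FBL, HEATR1, IMP3, NOP14, UTP18, TSR1, WDR12 and NIP7 met this rule but are given by difference or range. Further genes, DDX21 among them, and the NOB1 and NHP2 promoters were added after their values were seen. Wider pathway genes are, of those that passed, up to 3 per list and direction with the largest difference between ethanol and medium at 48 h. The genes and lists were chosen with earlier results of these data known. Marker, stress response and proliferation lists serve as description.

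The labels give the same replicate numbers in each group. Same-numbered DMSO and medium arrays deviated from their group means together (lowest correlation 0.526), as did ethanol at 24 h with medium at 24 h (lowest 0.225) and ethanol at 24 h with 48 h (lowest 0.319). Ethanol at 48 h and medium at 48 h did not in all pairs (-0.0834, -0.025 and 0.345 for replicates 1 to 3), so their blocked values stand with the alternatives only. Alternatives were other normalization, filters, probe set rules, empirical Bayes settings, array weights, fewer arrays and the replicate block.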

Additional observations from a re-analysis of the deposited data

Results flagged for a closer look

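GAR1 was flagged because it moved in opposite directions in medium and ethanol without overlap between the times. From 24 h to 48 h it was lower on all medium arrays (-0.29) and on all DMSO arrays (-0.29), and higher on all ethanol arrays (0.28), with no overlap between the times in any of the 3. UTP15, NOP14, RRP12, RRS1 and DDX21 had the same directions, but overlapped between the times in medium, in ethanol or in both. Directions were mixed over the 3 controls for 6 of the 35 genes and 4161 of all 10832. How many of all genes meet the rule on overlap was not counted. For GAR1, the difference of the change between ethanol and medium was 0.57 ± 0.18 log2, with an adjusted p of 0.131 (limma) that did not pass. This difference passed only in the fit with the replicate number as a block, given below. GAR1 had 1 probe set, so no second measurement of it was at hand.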

How the results depend on the processing

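Counts of the 35 genes that passed changed with a few settings, and the cause was not tested. With array weights, ethanol against medium at 24 h gave 2 (NOP14 and POLR1B, against 6.8% of all genes) and ethanol against DMSO at 24 h gave 4 (DDX21, GAR1, NOP14 and RRP9, against 11.5%). With the replicate number as a block, ethanol against medium at 48 h gave 3 (MYC, RRP12 and UTP15, against 26% of all genes), ethanol against DMSO at 48 h 2 (MYC and UTP15, against 29%), time in medium 2, time in ethanol 8 and the difference of time changes 1 (GAR1, adjusted p 0.0468, against 4.69%). The block over only the 12 DMSO and medium arrays gave 14 in medium and 10 in DMSO. Without replicate 3 of every group, 15 of the 35 in place of 25 were lower at 48 h in all 3 controls. The block over all 18 arrays changed no other such count by over 1.5 times. Leaving out 1 array in turn gave 0 to 1 genes for ethanol against medium at 48 h and 2 to 6 for time in ethanol, and leaving out 1 replicate of every group gave 2 to 6 for the averaged time. Time in ethanol gave 0 with only the groups compared. NIP7, at -0.22 over time in ethanol and not past the test, was at -0.39 to 0.05 with 1 array left out, 0.01 with array weights, 0.16 without both ethanol replicate 3 arrays and 0.05 without ethanol 24 h replicate 3. Of the single-gene values under all alternatives, 336 kept direction and side of the threshold, 15 gained a call, 14 lost one and 3 turned. With 3 arrays a group the standard error of a difference was 0.09 to 0.31 log2, so small differences were not detectable.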
